A study of Mus musculus with 2 samples.

Results

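The aminoacyl-tRNA synthetases are represented here by 36 genes of the 24315 that the arrays name by a single symbol. Of these, 20 encode enzymes taken as cytosolic and 16 encode mitochondrial enzymes, whose symbols end in 2. They were chosen by name, each through a main-class probeset annotated with that symbol alone, and no signal entered the rule. Earlier results of these data were known at the choice, among them lower amino acid stress genes. Macrophages were drawn into the peritoneal cavity with thioglycollate, an irritant, and cultured overnight in RPMI with serum without treatment, and the adherent cells gave total RNA. One group was C57BL/6 mice labelled HDAC11 knockout and the other was wild-type C57BL/6 mice, with 1 Affymetrix array each. HDAC11 is a histone deacetylase. The sources used here do not give the age and sex of the mice, how many gave each RNA or how the allele was made. With 1 array per genotype there is no replicate check, no difference below has a test or an error, and precision is limited by the array number. Values are RMA signals on a linear scale, and every difference is log2 of the HDAC11 knockout signal minus log2 of the wild-type signal.

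Each synthetase joins 1 amino acid to its transfer RNA, the step that gives the ribosome its charged substrates. Cytosolic and mitochondrial translation use largely separate sets of enzymes, all encoded in the nucleus, although Gars and Kars each supply both compartments. Several cytosolic enzymes sit in the multisynthetase complex, and the others act free of it. When amino acids are short, uncharged transfer RNA activates the kinase GCN2, the transcription factor ATF4 accumulates, and ATF4 raises genes of amino acid synthesis and uptake together with many cytosolic synthetases. In macrophages tryptophanyl-tRNA synthetase is known as an interferon-gamma-inducible gene.

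The label of the knockout array could not be checked from its target. Hdac11 gave a signal of 147.2 on the knockout array and 134.5 on the wild-type array, both under the floor used here. Which probes fall in the deleted part is not known from the sources used here. The array is therefore called knockout-labelled, and each direction rests on that label. The floor is a signal of 159 on the brighter array, the median over named genes, and 12158 genes reached it. All 9 measured macrophage markers reached it, with summed signals of 61921 on the knockout-labelled and 60440 on the wild-type array, as did 5 of 6 B cell markers, with summed signals of 4173 on the knockout-labelled and 3798 on the wild-type array. None of 6 T cell and none of 4 eosinophil markers did.

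All 36 synthetases reached the floor, so the counts below leave none out, and each had a probeset that the deposited annotation calls unique, of 19 to 37 probes. Cytosolic synthetases were mostly slightly lower on the knockout-labelled array. Of the 20, 18 were lower and 2 were higher, with a median difference of -0.14 and a range of -0.43 to 0.08. Among the 12158 genes above the floor 53.2% were lower and 46.4% higher, with a median of -0.01. Of the 16 mitochondrial synthetases 10 were lower and 6 higher, with a median of -0.11 and a range of -0.43 to 0.06. The differences were small: 4 cytosolic and 2 mitochondrial enzymes were lower by 1.2-fold or more, where 6.93% of genes above the floor were, and none of the 36 was higher by that much, where 7.11% of genes were. No synthetase reached 1.5-fold in either direction, which 1.01% of genes did as lower and 0.543% as higher. As a yardstick, pairs of probesets for the same gene disagreed by a median of 0.15 in 390 genes, and 9 cytosolic and 7 mitochondrial synthetases differed by more than that between the arrays, where 36% of genes above the floor did. The 95th percentile of that disagreement was 0.613, which no synthetase reached.

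Markers of other cells differed between the arrays in both directions. Of 8 mesothelial and fibroblast markers 7 were lower, with summed signals of 3178 on the knockout-labelled and 3872 on the wild-type array. The resident peritoneal macrophage list held 7 lower genes of 10, with sums of 3831 on the knockout-labelled and 4304 on the wild-type array. Over all named genes 44.1% were lower. Above the floor the resident macrophage list was mixed, with 5 lower and 3 higher, where 53.2% of genes were lower. Its largest differences had both signs: Selp (-0.82) and Cxcl13 (-0.60) against Fcna (0.69) and F5 (0.61). Cxcl13 gave 1019 on the knockout-labelled and 1539 on the wild-type array, and so weighed heavily in the sums. Markers of mast cells were higher in 4 of 5 cases, with summed signals of 618.7 on the knockout-labelled and 372.1 on the wild-type array, led by Cpa3, a mast cell protease (1.12). Markers of neutrophils were higher in 5 of 7, with 917.4 on the knockout-labelled and 702.6 on the wild-type array, led by S100a8, a calcium-binding protein (0.89). The neutrophil markers S100a9 (58.2 on the knockout-labelled and 62.8 on the wild-type array) and Camp were lower. Of these 2 lists, Cpa3 and S100a8 alone reached the floor. Over all 24315 named genes 13293 were higher. No marker was at 0, since RMA signals do not reach it. Of the 5331 intron control probesets 4174 were lower and 1151 higher, with a median of -0.36. The part of each in the synthetase differences was not tested. In RNA of mixed cells, fewer cells of a type and less RNA per cell cannot be told apart.

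Which compartment was lower depended on how dim genes were treated. Among genes whose brighter signal reached 668, the 75th percentile, 16 of 18 cytosolic synthetases were lower (median -0.12), and so were all 4 mitochondrial ones (median -0.19), where 57.6% of genes that bright were lower (median -0.03). Without that higher floor the cytosolic median was the lower one. Both medians were below 0 and below that of all genes under each of the 11 alternatives, though some of these could not move the medians.

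**Figure D1:**
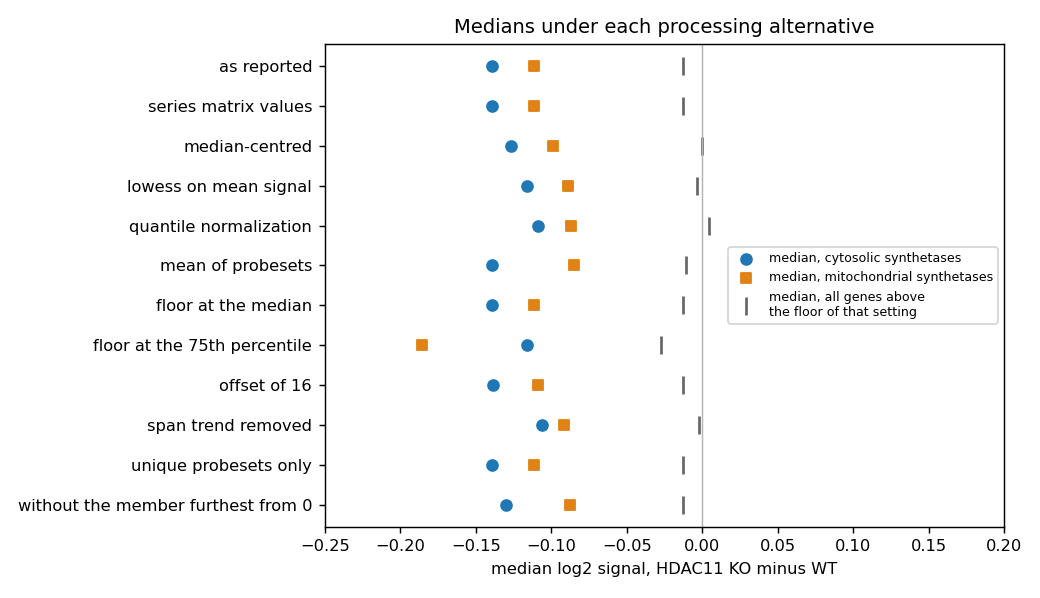
Median log2 difference (knockout-labelled minus wild-type) of cytosolic (circles) and mitochondrial (squares) synthetases, and of all genes above the floor (bars), as reported and under 11 processing alternatives. The circle lies left of the square in each row but that of the 75th percentile floor, where it is -0.12 against -0.19.

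**Figure D2:**
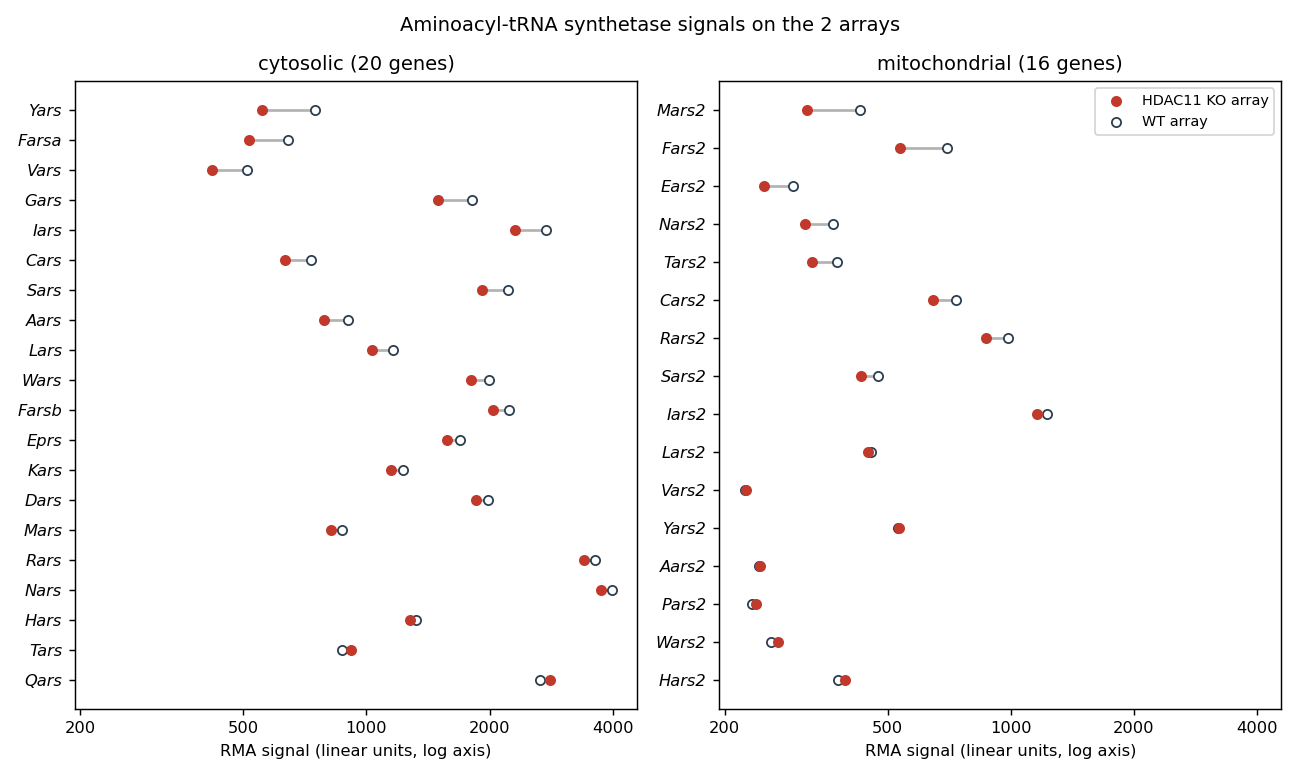
RMA signal (log axis) of each cytosolic (left) and mitochondrial (right) synthetase on the HDAC11 knockout-labelled array (filled points) and the wild-type array (open points), ordered by the difference. The filled point lies left of the open one for 18 of 20 cytosolic and 10 of 16 mitochondrial genes. Distances are to be read within a gene, since signals of different probesets are not on a common level.

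The free cytosolic enzymes held the largest cytosolic differences. Yars, which charges tyrosine transfer RNA and is also secreted as a cytokine-like protein, gave 555.2 on the knockout-labelled and 749.2 on the wild-type array, a difference of -0.43 or 1.35-fold. Its probeset lies on chromosome 4 from 129189760 to 129219607. This was the lowest of all 36, at the 2.10th percentile of genes above the floor. Farsa, the catalytic alpha subunit of phenylalanyl-tRNA synthetase, gave 515.8 on the knockout-labelled and 642.6 on the wild-type array (-0.32). Its partner subunit Farsb differed less, with 2037 on the knockout-labelled and 2230 on the wild-type array (-0.13). The catalytic subunit was thus the lower of a pair of genes whose products form 1 enzyme.

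Valyl- and glycyl-tRNA synthetase were the other cytosolic enzymes lower by 1.2-fold. Vars gave 420.0 on the knockout-labelled and 510.6 on the wild-type array (-0.28). Gars, which serves cytosol and mitochondria, gave 1492 on the knockout-labelled and 1808 on the wild-type array (-0.28). The enzymes for cysteine (Cars, -0.21), serine (Sars, -0.21) and alanine (Aars, -0.20) came next among the free ones. Wars, the interferon-inducible tryptophan enzyme, gave 1796 on the knockout-labelled and 1991 on the wild-type array (-0.15). Of the interferon-gamma-inducible list, 16 of 17 measured genes were lower and 1 higher, with a median of -0.20, where 44.1% of all named genes were lower. Wars lay between that median and the cytosolic synthetase median of -0.14, and nearer to the latter. The list's most negative member, the effector GTPase Iigp1, gave 59.1 on the knockout-labelled and 198.8 on the wild-type array, with the dimmer signal under the floor. Nars (-0.08) and Hars (-0.05) were the smallest negative differences of the free enzymes.

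Tars was the 1 free cytosolic enzyme that was higher. It charges threonine transfer RNA and gave 918.6 on the knockout-labelled and 873.6 on the wild-type array (0.07). Over the 12 free enzymes 11 were lower, with a median of -0.20.

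Members of the multisynthetase complex had smaller differences, which were not tested against those of the free enzymes. Within the 20 cytosolic enzymes the dimmer ones had the more negative differences (Spearman rho 0.51 with mean log2 signal). Within the 16 mitochondrial enzymes rho was -0.29. The part of signal level in the contrast of free and complex enzymes was not tested. Of its 8 synthetases 7 were lower, none by 1.2-fold, and the median was -0.10. Iars, for isoleucine, stood furthest, with 2309 on the knockout-labelled and 2751 on the wild-type array (-0.25), followed by Lars, for leucine (-0.17). Eprs, a fused enzyme for glutamate and proline, gave 1576 on the knockout-labelled and 1691 on the wild-type array (-0.10). Kars (-0.10), Dars (-0.10), Mars (-0.09) and Rars (-0.09) lay close to each other. Qars, for glutamine, was higher, with 2813 on the knockout-labelled and 2658 on the wild-type array (0.08). The non-enzymatic scaffold genes of the complex were all lower: Aimp1 by -0.26, Eef1e1 by -0.08 and Aimp2 by -0.04. Of 2 probesets for Aimp1 only the brighter is given.

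**Figure D3:**
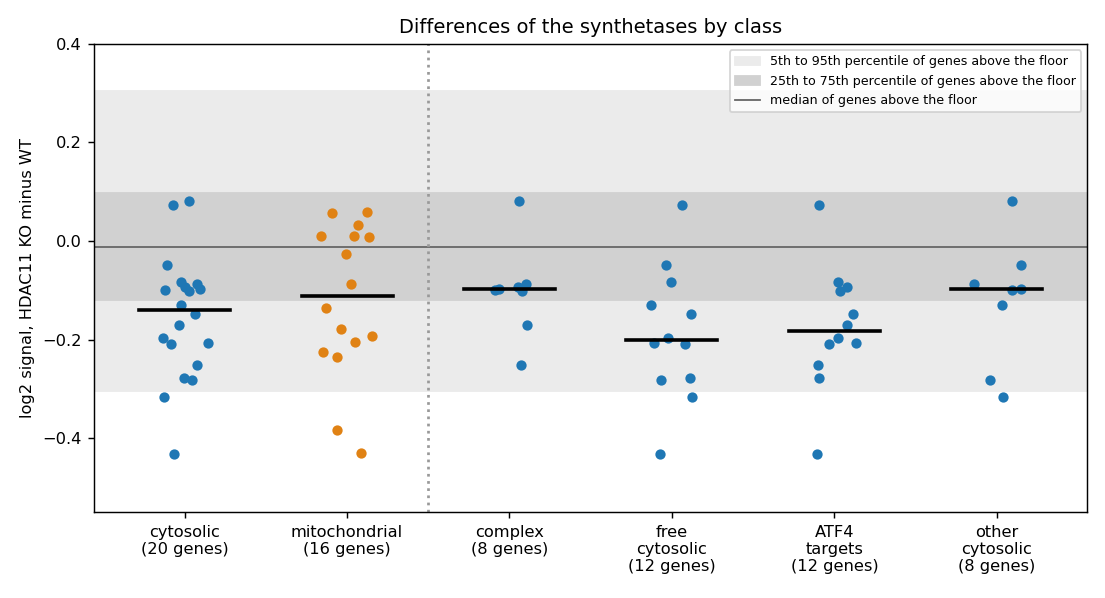
log2 difference (knockout-labelled minus wild-type) of each synthetase by class, with black bars at class medians; classes right of the dotted line subdivide the 20 cytosolic genes. Grey bands give the 5th to 95th and 25th to 75th percentiles of the 12158 genes above the floor. Class medians run from -0.20 (free cytosolic) to -0.10 (complex), and 4 genes lie under the 5th percentile.

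Splitting the cytosolic enzymes by regulation gave a similar spread. The 12 known as ATF4 targets had a median of -0.18 with 11 lower. The other 8 had a median of -0.10 with 7 lower. By catalytic fold, the 18 class I enzymes had a median of -0.16 and the 17 class II enzymes -0.13, with 14 and 13 lower. The fused Eprs holds both folds and was left out of that split. None of these subclasses was tested against another.

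Mitochondrial synthetases ran from lower differences to values near 0, and the groups below are cuts made in that order. Mars2, for methionine, gave 317.4 on the knockout-labelled and 427.9 on the wild-type array (-0.43, 1.35-fold). It maps to chromosome 1 from 55237177 to 55240058. Fars2, for phenylalanine, gave 535.5 on the knockout-labelled and 698.4 on the wild-type array (-0.38). Mars2 and Fars2 were the 2 mitochondrial enzymes past 1.2-fold, and with Yars and Farsa they made up the 4 synthetases under the 5th percentile of genes above the floor.

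Behind them came the enzymes for glutamate, asparagine, threonine, cysteine, arginine and serine. Ears2 gave 249.9 on the knockout-labelled and 294.3 on the wild-type array (-0.24). Nars2 gave 314.9 on the knockout-labelled and 368.1 on the wild-type array (-0.23). A second Nars2 probeset, on the opposite strand over the start of the gene, was under the floor at 96.7 on the knockout-labelled and 92.7 on the wild-type array (0.06). The signals of that probeset cannot be read as Nars2 transcript, and the mean of both probesets put Nars2 at -0.08. Tars2 (-0.20), Cars2 (-0.19), Rars2 (-0.18) and Sars2 (-0.14) followed, with Iars2 at -0.09.

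The remaining 7 mitochondrial enzymes hardly differed between the arrays. Hars2, for histidine, gave 394.7 on the knockout-labelled and 379.1 on the wild-type array (0.06), the highest of the 16. Wars2 gave 269.9 on the knockout-labelled and 259.5 on the wild-type array (0.06). Pars2 (0.03), Aars2 (0.01), Vars2 (0.01), Yars2 (0.01) and Lars2 (-0.03) lay nearest to 0. Of these 5, each took the opposite sign under at least 1 processing alternative.

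Enzymes that charge the same amino acid in the 2 compartments did not differ alike within pairs. Of 13 pairs with a shared base symbol, both genes were lower in 7, the cytosolic gene alone in 5 and the mitochondrial gene alone in 1. The cytosolic gene had the more negative difference in 9 pairs, and the median of cytosolic minus mitochondrial was -0.11. Tyrosine gave the widest gap, with Yars at -0.43 and Yars2 at 0.01. Methionine went the other way, with Mars at -0.09 and Mars2 at -0.43. In the threonine pair Tars was 0.07 and Tars2 was -0.20. For phenylalanine, where the cytosolic enzyme has a pair of subunits, Farsa (-0.32) and Fars2 (-0.38) were both among the lowest synthetases.

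**Figure D4:**
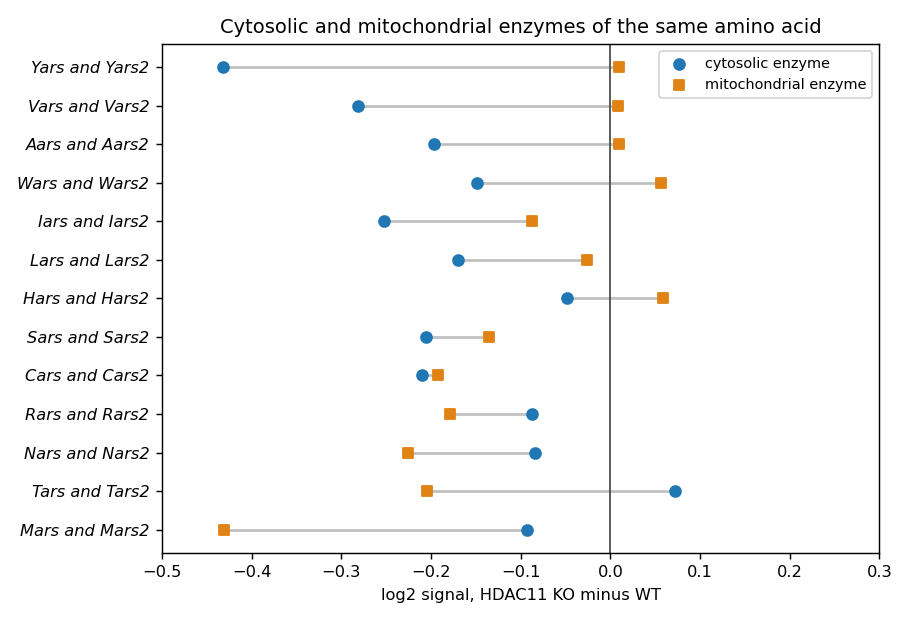
log2 difference (knockout-labelled minus wild-type) of the cytosolic enzyme (circles) and the mitochondrial enzyme (squares) in 13 pairs that charge the same amino acid, ordered by the gap. The circle lies left of the square in 9 pairs, from tyrosine at the top to cysteine, and right of it in 4.

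To show what surrounds the start of the genes that differed most, the RefSeq promoter windows of Yars, Mars2, Fars2 and Farsa are printed in GRCm38.p6 coordinates, from 250 bases before the start to 50 after it. Capitals mark matches, on either strand, to the amino acid response element core TGATGNAA, which C/EBP and ATF4 factors are known to bind, to the E-box CACGTG, known for MYC family factors, or to the CCAAT box CCAAT. In these 4 windows no match overlaps another.
Yars (chr4:129189653-129189952, plus strand): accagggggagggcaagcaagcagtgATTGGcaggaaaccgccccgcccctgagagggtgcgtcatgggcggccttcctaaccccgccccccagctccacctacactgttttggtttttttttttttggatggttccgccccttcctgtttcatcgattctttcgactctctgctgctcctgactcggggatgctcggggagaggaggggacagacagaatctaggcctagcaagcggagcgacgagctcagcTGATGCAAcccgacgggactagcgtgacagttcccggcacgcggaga
Mars2 (chr1:55236927-55237226, plus strand): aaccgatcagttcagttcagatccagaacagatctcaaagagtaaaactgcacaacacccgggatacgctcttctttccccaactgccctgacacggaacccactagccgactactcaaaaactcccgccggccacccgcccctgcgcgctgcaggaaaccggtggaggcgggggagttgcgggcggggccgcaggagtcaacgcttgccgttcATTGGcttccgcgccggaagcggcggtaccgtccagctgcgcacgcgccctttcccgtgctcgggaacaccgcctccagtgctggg
Fars2 (chr13:36117393-36117692, plus strand): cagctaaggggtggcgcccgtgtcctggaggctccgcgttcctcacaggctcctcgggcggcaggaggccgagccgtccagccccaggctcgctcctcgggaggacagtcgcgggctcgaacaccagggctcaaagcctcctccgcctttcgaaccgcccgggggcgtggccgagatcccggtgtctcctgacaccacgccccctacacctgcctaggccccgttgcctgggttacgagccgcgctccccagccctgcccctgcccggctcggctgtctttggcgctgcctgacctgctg
Farsa (chr8:84856736-84857035, plus strand): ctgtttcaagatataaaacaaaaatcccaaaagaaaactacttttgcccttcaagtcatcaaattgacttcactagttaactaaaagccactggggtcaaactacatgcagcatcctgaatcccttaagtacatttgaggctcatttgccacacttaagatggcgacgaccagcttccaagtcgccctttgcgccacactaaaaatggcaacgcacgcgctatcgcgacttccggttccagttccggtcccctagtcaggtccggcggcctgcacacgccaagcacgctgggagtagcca
The Yars window held 1 response element core, a few bases after the start, and 1 CCAAT box. The Mars2 window held 1 CCAAT box, and those of Fars2 and Farsa held none of the 3 motifs.

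Windows were found for 26 of the 36 genes. The response element core was in 5 of 12 cytosolic windows (Aars, Gars, Iars, Tars and Yars) and in 0 of 14 mitochondrial genes' windows, against 3.97% of all 32851 windows. The sites are shown with 16 bases on either side and the core in capitals, because these letters are the core of the element that ATF4 is known to bind.
Aars, upstream site (chr8:111033714-111033753, plus strand): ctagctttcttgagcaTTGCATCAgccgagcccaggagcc
Aars, downstream site (chr8:111033835-111033874, plus strand): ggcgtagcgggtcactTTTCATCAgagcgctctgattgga
Gars (chr6:55037955-55037994, plus strand): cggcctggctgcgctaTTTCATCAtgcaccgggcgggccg
Iars (chr13:49682121-49682160, plus strand): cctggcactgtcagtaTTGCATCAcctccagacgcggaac
Tars (chr15:11399650-11399689, minus strand): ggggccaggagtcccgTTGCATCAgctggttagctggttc
Yars (chr4:129189890-129189929, plus strand): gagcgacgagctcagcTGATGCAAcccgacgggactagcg
All but the Yars site run in reverse. The 5 genes with a core had differences of -0.20 (Aars), -0.28 (Gars), -0.25 (Iars), 0.07 (Tars) and -0.43 (Yars), a median of -0.25, and the 7 cytosolic genes whose window lacked it had a median of -0.10. The 14 mitochondrial genes with a window, all without the core, had a median of -0.16, and 10 of them were lower. Tars carried the core and was higher. The part of the core in these differences was not tested. The E-box was in 4 of 12 cytosolic and 1 of 14 mitochondrial genes' windows, against 7.15% of all windows, and the CCAAT box in 6 and 6, against 37.4%. These matches are letters in a window and no measure of binding.

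Genes that ATF4 is known to raise beside the synthetases included several with larger differences. This list was chosen with the lower Asns and amino acid stress genes of these data already known. Its counts are therefore a description and no independent support. Of 24 measured effectors of the amino acid response 15 were lower and 9 higher, with a median of -0.16, where 44.1% of all named genes were lower. Of the 16 above the floor 13 were lower, 9 of them by 1.2-fold, and 3 were higher, none by 1.2-fold, with a median of -0.30, where 53.2% of genes above the floor were lower and 6.93% lower by 1.2-fold. Among the 9, Chac1, an enzyme that degrades glutathione, gave 145.0 on the knockout-labelled and 176.0 on the wild-type array and so reached the floor on the wild-type array only. Mthfd2, a mitochondrial enzyme of folate metabolism, gave 470.0 on the knockout-labelled and 779.5 on the wild-type array (-0.73). Asns, which makes asparagine, gave 693.1 on the knockout-labelled and 1091 on the wild-type array (-0.65). Slc7a5, a subunit of the large neutral amino acid transporter, gave 453.4 on the knockout-labelled and 680.2 on the wild-type array (-0.59). The cationic amino acid transporter Slc7a1 followed at -0.46. These 4 differed more than any synthetase.

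**Figure D5:**
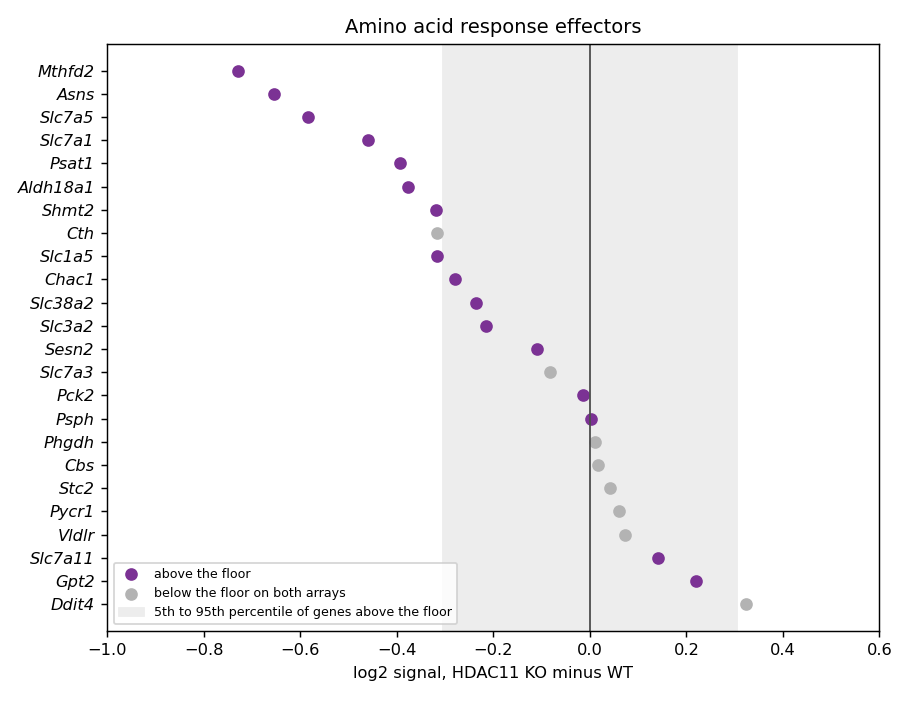
log2 difference (knockout-labelled minus wild-type) of 24 amino acid response effectors, ordered from lowest at the top; grey points were under the floor on both arrays and the band is the 5th to 95th percentile of genes above the floor. Mthfd2, Asns, Slc7a5 and Slc7a1 lie furthest left, and 9 of the 24 lie right of 0.

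The sensors and factors of the response, taken as a list, differed less. Of these 13 genes, all above the floor, 8 were lower and 5 higher, none by 1.2-fold, with a median of -0.10. Over all genes above the floor 53.2% were lower. Eif2ak4, which encodes GCN2, gave 676.2 on the knockout-labelled and 798.4 on the wild-type array (-0.24). Ddit3, the stress factor CHOP, gave 596.0 on the knockout-labelled and 685.7 on the wild-type array (-0.20). Atf4 itself gave 1055 on the knockout-labelled and 1197 on the wild-type array (-0.18), a measure of its mRNA and not of the protein, whose level is set largely in translation.

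Genes that make and handle transfer RNA did not share 1 direction. Of 10 genes of transfer RNA export and maturation 5 were lower and 5 higher, with a median of 0.01, where 53.2% of genes above the floor were lower. Xpot, the nuclear exporter of transfer RNA and a known ATF4 target, gave 932.4 on the knockout-labelled and 1151 on the wild-type array (-0.30). Clp1, an RNA kinase, gave 165.8 on the knockout-labelled and 132.7 on the wild-type array (0.32), with the dimmer signal under the floor. All 4 measured genes of aminoacyl-tRNA editing and recycling were higher, led by Ptrh2, a peptidyl-tRNA hydrolase of mitochondria, with 257.7 on the knockout-labelled and 167.9 on the wild-type array (0.62). Their median was 0.15, where 46.4% of genes above the floor were higher. Ptrh2 alone of these 4 passed 1.2-fold, and Dtd1 stood at 0.03.

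Partners of the mitochondrial enzymes were also mixed, where 53.2% of genes above the floor were lower. Of 4 amidation and formylation genes 3 were lower and 1 higher, with a median of -0.03. Among them Pet112l, a subunit of the amidotransferase that makes glutaminyl-tRNA in mitochondria, gave 314.6 on the knockout-labelled and 367.4 on the wild-type array (-0.22), and the formyltransferase Mtfmt stood at -0.06. Of 9 mitochondrial translation factors 7 were lower and 2 higher, with a median of -0.12. Mtif3, an initiation factor, was the exception at 1.2-fold, with 1263 on the knockout-labelled and 1011 on the wild-type array (0.32). Of 3 further genes of transfer RNA charging Sepsecs, which makes selenocysteinyl-tRNA, stood at -0.09 and Tarsl2, a cytosolic threonine enzyme, at 0.13.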

How the data were processed

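RNA of 2 samples, 1 per genotype, was hybridised to Affymetrix arrays, per the labels' protocols. The authors made each RMA intensity, deposited on a linear scale, with Affymetrix Expression Console 1.2.1, per the file headers and the submitters' processing notes, and a second deposited table holds log2 of these values, differing by at most 5e-05. The sources used here name no genome build; all 36 probesets overlapped the RefSeq gene of that name (Mars through a synonym) in GRCm38.p6.

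The brightest main probeset with 1 symbol stood for a gene (24315 genes, from 26563 of 33641 main probesets). Differences are log2 values; with 1 array per group no test was run. Named genes are all 36 members and Hdac11. Of each other list, up to 4 genes above the floor past 1.2-fold are named, otherwise the 2 furthest from 0. Atf4, Aimp2, Chac1 and the 5 genes with printed sites were chosen after values were seen. S100a9, Camp and Dtd1 are also named outside this rule. Some genes of these lists are not reported here. The 4 full promoter windows are those of the members furthest from 0 outside chromosome 18. The members and lists were chosen with earlier results of these data known, among them the lower Asns and amino acid stress genes. Steps were tested on simulated data. RMA aligns the arrays' signal distributions, so a shift of all genes is not visible. The alternatives covered the source of values, scaling, several probesets, floors, an offset of 16, genomic span, unique probesets and the extreme members. Tools were pandas 2.3.3, numpy 2.4.6, statsmodels 0.14.6, scipy 1.17.1 and matplotlib 3.10.9 under Python 3.11.15.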

Additional observations from a re-analysis of the deposited data

How the results depend on the processing

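No paired analysis was possible because each genotype has 1 array. A median was taken to stay when it moved by less than the members' SD over the square root of their number, a count when it stayed within 1.5 times, and a gene when it moved by less than the disagreement of probesets. By this 71 summary values stayed, 5 moved and 1 changed sign, and all 252 values of single synthetases stayed. For single genes this limit was wide, at 0.15. Only 9 cytosolic and 7 mitochondrial synthetases differed between the arrays by more than that. Pars2, Aars2, Vars2, Yars2 and Lars2 changed sign under an alternative and still counted as staying. Part of this was fixed in advance. All 36 members reached the median floor and had unique probesets, so those alternatives repeat the reported values of the members. The second deposited table holds the same signals, and the mean of probesets could change Nars2 alone. Median-centring shifted every gene by the same 0.01. The 18 lower and 2 higher cytosolic synthetases kept their signs under each of the 7 alternatives that recompute single genes, as did 9 lower and 2 higher mitochondrial ones. Quantile normalization put the cytosolic median at -0.11, and removing the trend with genomic span put it at -0.11. With the floor at the 75th percentile, from the smaller number of genes (4 mitochondrial and 18 cytosolic), the mitochondrial median was -0.19, 4 mitochondrial synthetases were lower, 3 synthetases were lower by 1.2-fold, and the cytosolic minus the mitochondrial median turned to 0.069, where it was -0.028 as reported.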

Other observations

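Neighbouring synthetase genes did not all share a direction. Hars and Hars2 lie head to head on chromosome 18, their annotated ends overlapping by 198 bases, and gave differences of -0.05 and 0.06. Vars and Vars2 lie 639 kb apart on chromosome 17 and gave -0.28 and 0.01. Iars2 and Eprs start 33.7 kb apart on opposite strands of chromosome 1 and gave -0.09 and -0.10. Positions are those of the deposited annotation.

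Genes above the floor with a longer genomic span had lower differences (Spearman rho -0.24 across genes), and the 36 synthetases had rho -0.26, given as a description of genes on the same 2 arrays. Mars2 spans 2.88 kb and Fars2 420 kb, and they were the lowest mitochondrial genes. Genes above the floor with a span between the synthetases' quartiles (14.8 to 47.0 kb) had a median of -0.02, and 54.7% of those 4092 genes were lower. The part of span in the synthetase differences was not tested.

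Deposited annotation places 7 of the 20 cytosolic synthetases in mitochondria as well (Gars, Kars, Mars, Nars, Rars, Sars and Vars) and all 16 mitochondrial ones.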
